A study of Canis lupus familiaris with 20 samples.

Results

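Of 24579 dog gene identifiers, 7 were selected on their exosome counts, each taking more than 1% of the total in at least 1 of 12 exosome libraries. Exosomes are small membrane vesicles that cells release, and here they came from the culture supernatants of dog osteosarcoma (bone tumour) cell lines. Exosomes of the line OS-1 gave 4 libraries and those of OSCA-8, OSCA-78, OSCA-32 and OS-2 gave 2 apiece, while 8 cell libraries, 2 per line, came from every line but OSCA-32. The labels give no genotype, treatment or time for any group, and they describe ExoQuick enrichment of exosomes, a SeraMir RNA kit and a SMARTer stranded total RNA kit in the same words for exosome and cell libraries. Nothing in the labels says that replicates came from separate cultures, so that the spread between them may be technical. The genes are named by Ensembl identifier because the files do not pair identifiers with symbols, and for the same reason the lines could not be checked against bone or vesicle markers.

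Vesicle RNA is known to consist largely of short RNA and of fragments of longer RNA, with structured non-coding RNA often prominent beside pieces of messenger RNA. Random priming in a total RNA kit captures transcripts with and without a poly(A) tail, so one highly represented RNA can occupy a large part of a shallow library. Which class of RNA the 7 genes belong to was not established here.

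Total counts ran from 259078 to 481487 in exosome libraries and from 7728553 to 13301840 in cell libraries, so a count of 0 allowed up to 6.23 to 11.6 CPM (counts for each 1000000 of the library) in an exosome library and 0.226 to 0.388 CPM in a cell library, taking 3 counts as the limit. Each library pools many vesicles or cells, so that fewer of a kind and less RNA in each cannot be told apart. Any difference in how vesicle and cell RNA were prepared cannot be told apart from the fraction.

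Together the 7 genes took between 0.750% of the counts (OS-1 exosome replicate 4, Clopper-Pearson 95% interval 0.725% to 0.776%) and 60.9% (OS-2 exosome replicate 2, 60.8% to 61.1%) of an exosome library. The other OS-2 library stood at 55.6%. In OSCA-8 the shares were 27.4% and 18.7%, and in OSCA-78 they were 20.8% in replicate 2 and 1.49% in replicate 3. The OS-1 replicates 1 to 4 stood at 18.4%, 13.7%, 1.59% and 0.750%, and the OSCA-32 replicates at 1.90% and 0.807%. Replicates of OS-1 and of OSCA-78 thus lay on both sides of a wide gap, between 1.90% and 13.7%, in which no library fell. In cells the same genes took 0.0394% to 0.126% of the counts. The most abundant gene outside the set took 0.180% to 0.854% of an exosome library. Since the genes were chosen for high exosome counts, their exosome levels are a description and were not tested.

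**Figure D1:**
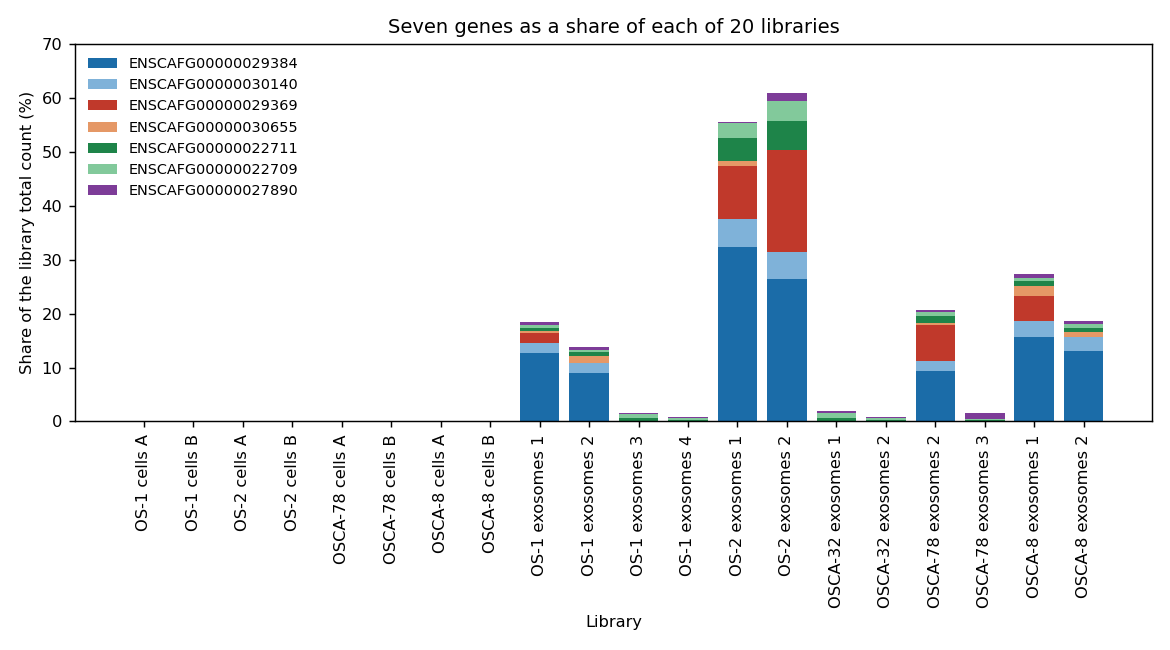
Stacked bars give the share of the library total count (%) taken by each of the 7 genes in the 8 cell and 12 exosome libraries. The OS-2 exosome libraries reach 55.6% and 60.9%, 5 exosome libraries stay at or below 1.90%, and the cell libraries, at 0.126% or less, are too low to be seen.

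The number of the 7 genes above 1% differed between libraries in the same way. It was 6 and 5 in OS-2 replicates 2 and 1, 4 in OSCA-8 replicate 1 and OSCA-78 replicate 2, 3 in OS-1 replicates 1 and 2, and 2 in OSCA-8 replicate 2. OSCA-78 replicate 3 had 1, and both OSCA-32 libraries and replicates 3 and 4 of OS-1 had 0. By the highest share reached, the order was ENSCAFG00000029384 (32.3%), ENSCAFG00000029369 (18.9%), ENSCAFG00000022711 (5.39%), ENSCAFG00000030140 (5.31%), ENSCAFG00000022709 (3.82%), ENSCAFG00000030655 (1.80%) and ENSCAFG00000027890 (1.44%). Just outside the set were ENSCAFG00000030616 at 0.854%, ENSCAFG00000029580 at 0.549% and ENSCAFG00000032163 at 0.533%. Each of the 7 genes passed 1% in at least 2 libraries, ENSCAFG00000029384 and ENSCAFG00000030140 in 7 of 12, ENSCAFG00000029369 in 5, ENSCAFG00000022711 in 3 and the others in 2.

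ENSCAFG00000029384 was the most abundant gene of 7 exosome libraries. It took 32.3% and 26.5% of the OS-2 libraries, 15.6% and 13.0% of the OSCA-8 libraries, 12.6% and 8.91% of OS-1 replicates 1 and 2, and 9.40% of OSCA-78 replicate 2. It took only 0.0640% and 0.0388% of OS-1 replicates 3 and 4, 0.0471% of OSCA-78 replicate 3, and 0.0354% and 0.0274% of the OSCA-32 libraries. No library lay between 0.0640% and 8.91%. Within a line, its level differed 1.22-fold between the OS-2 libraries, 1.20-fold between the OSCA-8 libraries and 200-fold between the OSCA-78 libraries. In cells it stood at 74.9 to 888 CPM with a median of 231 CPM, so the 5 low exosome libraries, at 274 to 640 CPM, lay within the range of the cells.

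ENSCAFG00000030140 was high in the same 7 exosome libraries. It stood at 53079 and 48838 CPM in OS-2, 30354 and 26668 CPM in OSCA-8, 19299 and 19035 CPM in OS-1 replicates 1 and 2, and 18964 CPM in OSCA-78 replicate 2. In the other 5 it had 1 to 22 counts, or 2.47 to 53.9 CPM. Cells held 8.44 to 179 CPM, and the low exosome libraries overlapped with them. The ratio of ENSCAFG00000029384 to ENSCAFG00000030140 counts was nearly fixed across the 7 libraries, at 4.68 to 6.53, while ENSCAFG00000030140 itself ran from 18964 to 53079 CPM among them. In the other 5 exosome libraries the ratio ran from 8.73 to 111, with few counts of the second gene. In cells it ran from 3.33 to 42.4 with a median of 6.82. Letter B of OS-1 (38.8) and of OSCA-8 (42.4) were high, and the remaining cell libraries, at 3.33 to 8.05, lay around the values of the 7 exosome libraries.

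ENSCAFG00000030616, which fell short of the 1% rule, kept to the same libraries. It had 664 to 4113 counts in the 7 libraries and 0 to 2 counts in the other 5. ENSCAFG00000030140 exceeded it 6.21- to 7.53-fold in the 7 libraries, a narrower range than the 3.17 to 17.2 found in cells. The cell ratios rest on only 17 to 157 counts of ENSCAFG00000030616 per library, so counting error weighs more in them.

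**Figure D2:**
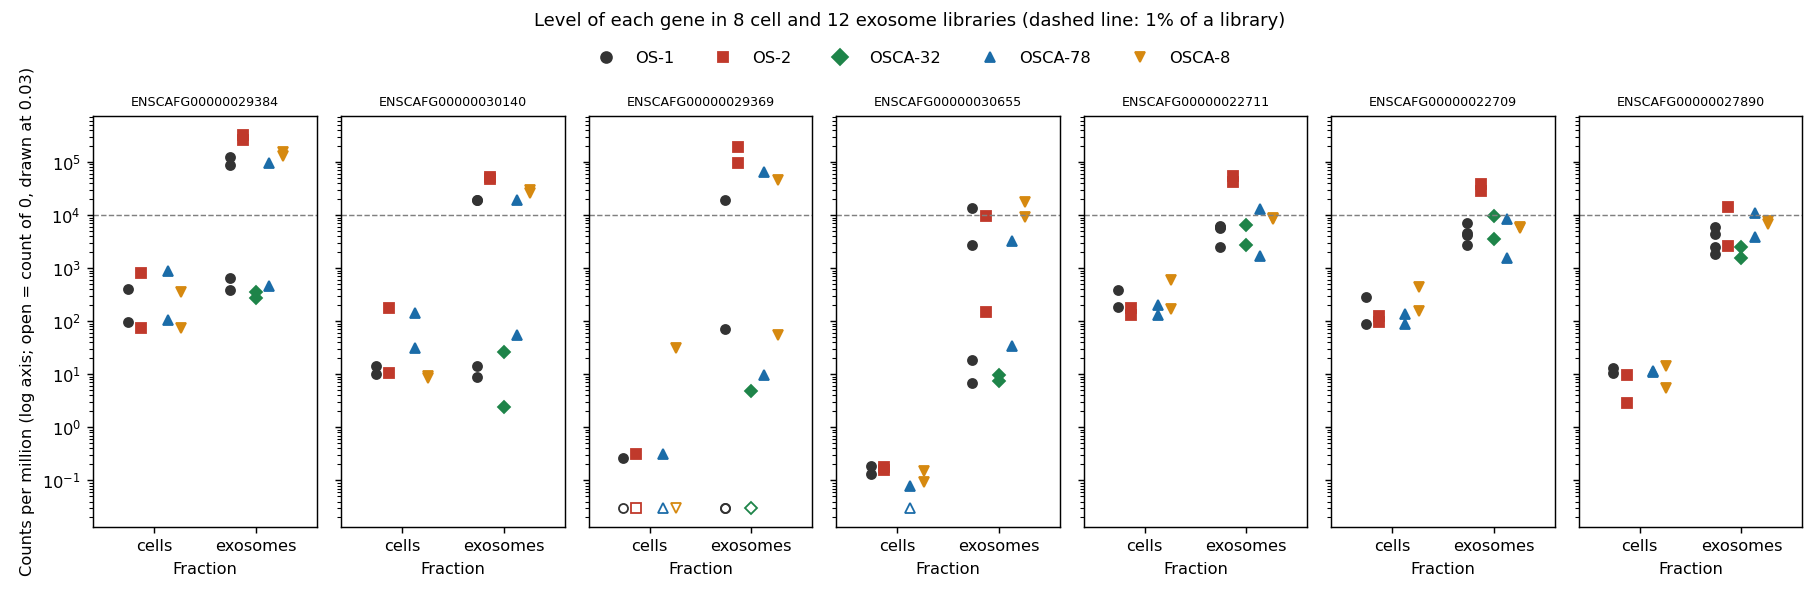
Points give the CPM (log axis) of each of the 7 genes in every cell and exosome library, with colour and shape for the line, open points for a count of 0 drawn at 0.03, and a dashed line at 1% of a library. ENSCAFG00000029384 and ENSCAFG00000030140 split into 7 high and 5 low exosome libraries, the latter at the level of cells, whereas ENSCAFG00000027890 stays between 1561 and 14362 CPM in exosomes.

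ENSCAFG00000029369 exceeded 1% in 5 of those 7 libraries and in no other. It held 85756 and 47187 counts in OS-2 replicates 2 and 1 (189106 and 98003 CPM), 21276 in OSCA-78 replicate 2, 18183 in OSCA-8 replicate 1 and 5075 in OS-1 replicate 1. It held 20 counts in OSCA-8 replicate 2 and 25 in OS-1 replicate 2, which were rich in ENSCAFG00000029384, and 0 to 4 counts in the other 5 exosome libraries. Between the OSCA-8 libraries its level thus differed 849-fold, against 1.20-fold for ENSCAFG00000029384. In cells it had 0 counts in all 4 libraries of letter A, 2, 4 and 4 counts in OS-1, OS-2 and OSCA-78 letter B, and 346 counts, 31.7 CPM, in OSCA-8 letter B.

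ENSCAFG00000030655 was also uneven, and was low in the same 5 libraries. It stood at 17972 and 9092 CPM in OSCA-8, 13891 CPM in OS-1 replicate 2 and 2771 CPM in replicate 1, 9481 CPM in OS-2 replicate 1 and 148 CPM in replicate 2, and 3277 CPM in OSCA-78 replicate 2. The remaining 5 exosome libraries had 3 to 14 counts. Between OS-1 replicates 1 and 2, and between the OS-2 replicates, the library higher in ENSCAFG00000029369 was lower in ENSCAFG00000030655, but OSCA-8 replicate 1 was the higher in both. The ratio of ENSCAFG00000029369 to ENSCAFG00000030655 counts ran from 0.00507 to 1280 in the 7 libraries. Cells had 11 counts of ENSCAFG00000030655 in all, at most 2 per library.

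ENSCAFG00000022711 and ENSCAFG00000022709 formed a second pair. ENSCAFG00000022711 stood at 53879 and 41692 CPM in OS-2 exosomes, 12860 CPM in OSCA-78 replicate 2, and 1660 to 8969 CPM in the other 9 exosome libraries. ENSCAFG00000022709 stood at 38189 and 28528 CPM in OS-2 exosomes and 1564 to 9712 CPM elsewhere. The OS-2 libraries were therefore above all other exosome libraries for both genes. The remaining lines overlapped, with ENSCAFG00000022711 means of 8690 ± 395 CPM (SD, n = 2) for OSCA-8, 7260 ± 7920 CPM (n = 2) for OSCA-78, 5122 ± 1758 CPM (n = 4) for OS-1 and 4542 ± 2610 CPM (n = 2) for OSCA-32. Neighbours in this order did not differ beyond their spread. In cells the pair was at 129 to 607 CPM and 90.3 to 438 CPM, with the highest values of both in OSCA-8 letter A.

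The ratio of ENSCAFG00000022711 to ENSCAFG00000022709 counts separated the same libraries as ENSCAFG00000029384 did. It was 1.41 to 1.51 in the 7 libraries rich in ENSCAFG00000029384. Of the other 5, the OSCA-32 libraries had ratios of 0.658 and 0.764, OS-1 replicates 3 and 4 had 0.781 and 0.914, and OSCA-78 replicate 3 had 1.06. In cells it was 1.09 to 2.02, and 6 of 8 cell libraries lay between 1.33 and 1.47. The 5 exosome libraries poor in ENSCAFG00000029384 thus had lower ratios than every cell library. OSCA-78 replicate 3, with 677 and 638 counts, was close to the lowest cell library, OSCA-8 letter B at 1.09. No interval for counting error was taken for these ratios.

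**Figure D3:**
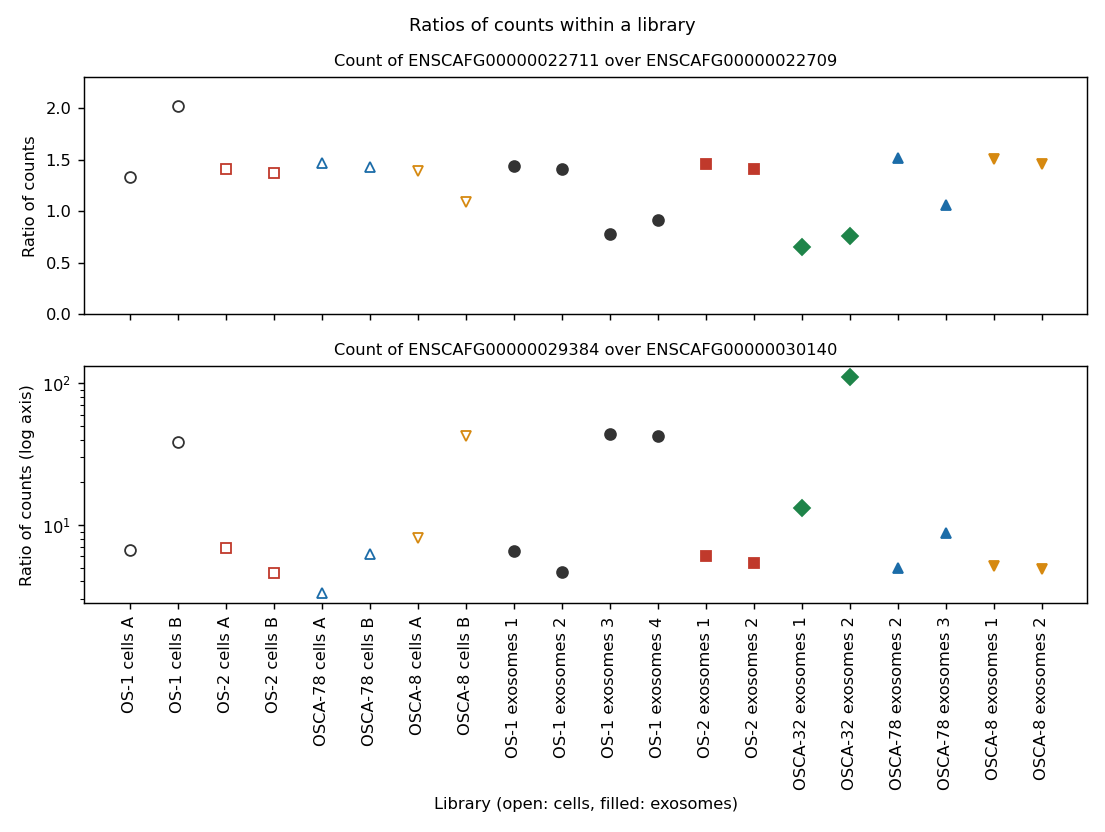
Each point is the ratio of counts of the named genes within a library, over 8 cell libraries (open) and 12 exosome libraries (filled), with the lower panel on a log axis. In the upper panel 7 exosome libraries lie at 1.41 to 1.51 and the other 5 at 0.658 to 1.06, and in the lower panel the same 7 lie at 4.68 to 6.53.

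ENSCAFG00000027890 was the most evenly spread of the 7 genes, ranging 9.20-fold over the exosome libraries. It stood at 14362 and 2646 CPM in OS-2 replicates 2 and 1, 11133 CPM in OSCA-78 replicate 3 and 3852 CPM in replicate 2, 7840 and 6774 CPM in OSCA-8, 1813 to 5848 CPM in OS-1, and 2541 and 1561 CPM in OSCA-32. OSCA-78 replicate 3, where it was the leading gene, was the lowest exosome library for ENSCAFG00000022711 and ENSCAFG00000022709 and one of the 5 poor in ENSCAFG00000029384. In cells it stood at 2.85 to 14.6 CPM.

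Whether the genes rose together depended on which libraries were compared. Between the 7 libraries rich in ENSCAFG00000029384 and the other 5, 4 genes were separated without overlap. They were ENSCAFG00000029384 and ENSCAFG00000030140, ENSCAFG00000029369 (at least 54.7 CPM against at most 9.81 CPM) and ENSCAFG00000030655 (at least 148 CPM against at most 34.3 CPM). ENSCAFG00000022709, ENSCAFG00000022711 and ENSCAFG00000027890 overlapped between the sets. Such a separation held for 1.23% of the 24079 genes with an exosome count, but since exosome counts chose the genes and ENSCAFG00000029384 defines the sets, nothing is read from that share. Because of this split, correlations were taken within the 7 libraries and serve as a description, since all values of a library share its total. These libraries include replicates of the same line, so the correlations mix differences between lines with differences between replicates. Over the 21 pairs of genes the median Spearman's rho of log2(CPM + 1) was 0.25 (range -0.36 to 1, n = 7 libraries) and the median Pearson's r was 0.20 (range -0.62 to 0.999). The highest were those of ENSCAFG00000022709 with ENSCAFG00000022711 (rho 1) and of ENSCAFG00000029384 with ENSCAFG00000030140 (rho 0.96). ENSCAFG00000030655 had a negative rho with 5 of the other 6 genes, and ENSCAFG00000027890 lay between -0.21 and 0.25. With the 7 genes taken out of the library totals, the median rho was 0.61 (range -0.21 to 0.96, 16 of 21 pairs positive) and the median r was also 0.61. On that scale ENSCAFG00000027890 had a rho of 0.61 with ENSCAFG00000029384 and 0.64 with ENSCAFG00000030140, while ENSCAFG00000030655 stayed between -0.21 and 0.14 with every other gene. The median within the 7 libraries thus depended on the total the counts were divided by, but not every pair did. ENSCAFG00000022709 with ENSCAFG00000022711 (rho 1 and 0.96) and ENSCAFG00000029384 with ENSCAFG00000030140 (0.96 and 0.93) changed little. ENSCAFG00000029369 with ENSCAFG00000029384 stayed at 0.61. ENSCAFG00000030140 with ENSCAFG00000022709 rose from 0.57 to 0.86, and the values of ENSCAFG00000027890 given above rose too.

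Within the 8 cell libraries, which the choice of genes did not use, the median rho over the 21 pairs was -0.05, with 9 pairs positive. The highest values were 0.76 for ENSCAFG00000022709 with ENSCAFG00000022711 (Pearson's r 0.96) and 0.76 for ENSCAFG00000029369 with ENSCAFG00000029384 (r 0.28). The lowest were -0.77 for ENSCAFG00000022711 with ENSCAFG00000029369 (r -0.24), and -0.71 for ENSCAFG00000029384 with ENSCAFG00000022709 and with ENSCAFG00000022711. Within the 7 exosome libraries both of these pairs of ENSCAFG00000029384 had a rho of 0.68. Outside OSCA-8 letter B, ENSCAFG00000029369 had at most 4 counts in a cell library, so its ranks rest on few counts and ties. The cell correlations pool the replicate letters A and B, between which several of the genes differed. Each letter has only 4 cell libraries, too few for a correlation of its own.

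**Figure D4:**
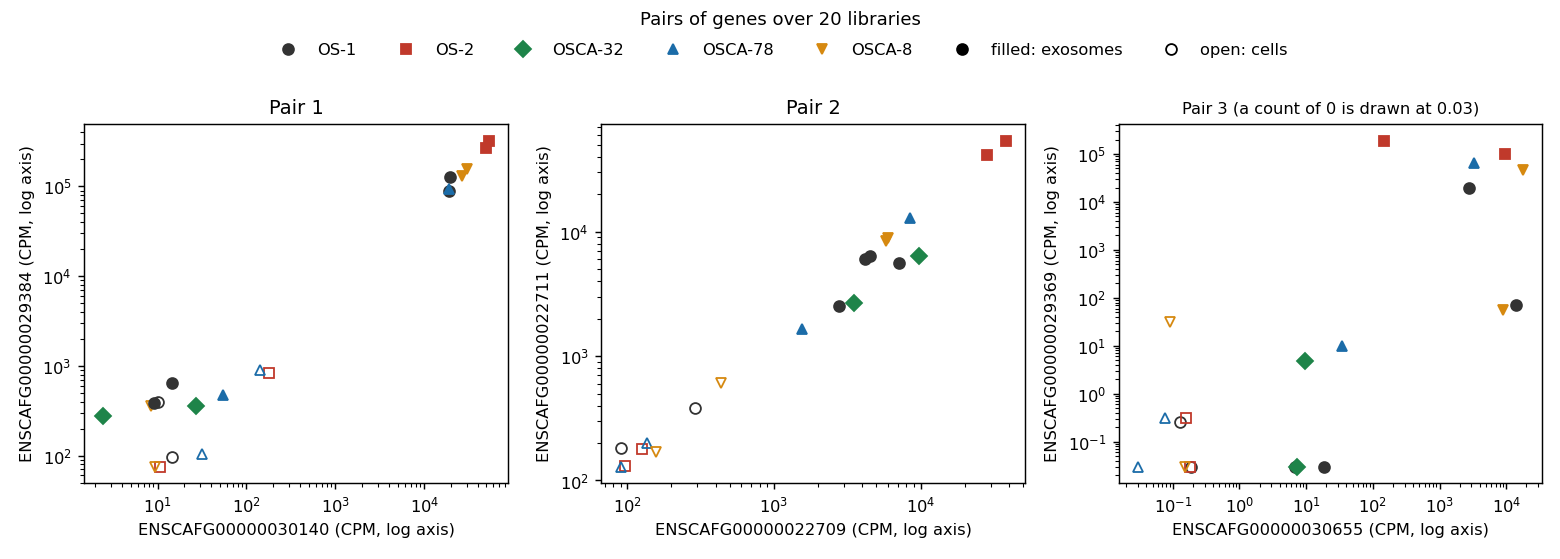
Each panel plots the CPM of a gene against another (log axes), with filled points for exosome and open points for cell libraries, colour and shape for the line, and a count of 0 drawn at 0.03. The first 2 panels show pairs that follow each other across exosome libraries, and the third shows ENSCAFG00000029369 against ENSCAFG00000030655, whose ratio runs from 0.00507 to 1280 among 7 exosome libraries.

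Other measures were set beside the summed share of the 7 genes. Not all of them moved with it, and their part in it was not tested. Genes without any cell count took 7.05% to 7.33% of the counts of the 5 libraries poor in ENSCAFG00000029384, 3.87% to 5.17% in OS-1 replicates 1 and 2, OSCA-78 replicate 2 and OSCA-8, and 1.37% and 1.10% in OS-2. As a share of the counts left without the 7 genes these values were 7.16% to 7.39%, 5.33% to 6.05%, and 3.09% and 2.82%. The number of other genes detected at 177237 counts of other genes was 19340 to 19518 in the 5 libraries, 19205 to 19542 in the next 5, and 17194 and 16558 in OS-2. Total counts of the 5 libraries were 404979 to 478322. The OS-2 libraries had 481487 and 453481. OS-1 replicates 1 and 2, OSCA-78 replicate 2 and OSCA-8 had fewer than any of the 5, at 259078 to 391218. The counts left without the 7 genes were 401711 to 470703 in the 5 libraries and 177237 to 306408 in the other 7. ENSCAFG00000029580, just outside the 1% rule, ran the other way in part, at 4604 to 5490 CPM in OS-1 replicates 3 and 4 and OSCA-32 and at 379 to 1698 CPM in the other 8 exosome libraries, OSCA-78 replicate 3 among them.

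The genes outside the set whose exosome levels followed the summed share most closely were counted in every cell library. ENSCAFG00000016964 had the highest Spearman's rho with it (0.98 over 12 exosome libraries), but with 126 pooled exosome counts it was near the limit of detection. ENSCAFG00000016020 and ENSCAFG00000017680 were next at 0.97 each. ENSCAFG00000016020 ran from 31.8 to 2152 CPM in exosomes and from 1704 to 3637 CPM in cells, and ENSCAFG00000017680 from 4.94 to 611 CPM and from 856 to 1371 CPM. In both the lowest of the 7 libraries rich in ENSCAFG00000029384 was above the highest of the other 5 (583 against 122 CPM, and 118 against 27.0 CPM). Such a separation held for 1.23% of all genes with an exosome count. Choosing genes by their rho with the summed share, which splits the same libraries, favours it, so nothing is read from it. The ranks by rho were taken among 10762 genes with at least 120 pooled exosome counts, and are a description with no test.

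Set against the cells of the same line, all 7 genes had a higher mean level in exosomes in all 4 lines. The ratio of mean CPM, exosomes over cells, had a median log2 value of 9.36 over the 28 combinations of gene and line, against medians of -0.69 (OS-2) to 1.16 (OS-1) over all genes counted in both fractions of a line. The choice of genes by their exosome counts favours high ratios, so nothing is read from the contrast with all genes. The lowest ratios belonged to the pair ENSCAFG00000022711 and ENSCAFG00000022709, at 18.03 and 24.6 in OS-1, 22.4 and 19.7 in OSCA-8, 44.1 and 44.4 in OSCA-78, and 308 and 300 in OS-2. For ENSCAFG00000027890 they were 304 in OS-1, 666 in OSCA-78, 725 in OSCA-8 and 1358 in OS-2. For ENSCAFG00000029384 they were 95.2 in OSCA-78, 219 in OS-1, 654 in OS-2 and 661 in OSCA-8, and for ENSCAFG00000030140 they were 109, 775, 537 and 3210 in the same lines.

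The ratios of the remaining genes rested on few cell counts. ENSCAFG00000030655 had 1 to 4 cell counts per line. From pooled counts its ratio was 36596 in OSCA-78 (95% interval 6554 to 1446810), 22729 in OS-1 (7773 to 110247), 110385 in OSCA-8 (37761 to 535353) and 29646 in OS-2 (11571 to 108850), intervals that cover counting error only. ENSCAFG00000029369 had 2 cell counts in OS-1, with a pooled ratio of 30698 (8494 to 253555), 4 in OSCA-78, with one of 182296 (71188 to 669121), 4 in OS-2, with one of 850857 (332307 to 3122840), and 346 in OSCA-8, with a pooled ratio of 1683 (1513 to 1877).

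These ratios depended on single libraries of either fraction. Without OSCA-78 replicate 2 the log2 ratio in that line turned from 6.57 to -0.08 for ENSCAFG00000029384 and from 6.77 to -0.69 for ENSCAFG00000030140, and fell to 5.99 for ENSCAFG00000029369 from 17.71. Without OSCA-8 replicate 1 that of ENSCAFG00000029369 fell to 1.79 from 10.52, and without OS-1 replicate 1 to 7.50 from 15.21. That of ENSCAFG00000030655 fell to 9.78 from 14.81 without OS-2 exosome replicate 1 and to 9.80 from 15.39 without OSCA-78 exosome replicate 2. Among cell libraries, leaving out OSCA-8 replicate B, which held all 346 counts, moved ENSCAFG00000029369 from 10.52 to at least 16.65 (the remaining library had 0 counts and was set to the limit of 3), and leaving out OS-2 replicate B moved ENSCAFG00000030140 from 9.07 to 12.21 and ENSCAFG00000029384 from 9.35 to 11.94.

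Of the 7 genes, 4, namely ENSCAFG00000022709, ENSCAFG00000022711, ENSCAFG00000027890 and ENSCAFG00000030655, were higher in every one of the 12 exosome libraries than in every cell library, which held for 14.1% of the 24168 genes with any count. For ENSCAFG00000029369, ENSCAFG00000029384 and ENSCAFG00000030140 this held in 7 exosome libraries. Since exosome counts chose the genes, nothing is read from the share of all genes.

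The ratios also moved with the scaling. Taking the 7 genes out of every library total raised all 28 ratios, as it must, because they took a larger share of exosome than of cell libraries. In OS-2 the log2 ratio rose from 9.35 to 10.61 for ENSCAFG00000029384 and from 8.27 to 9.55 for ENSCAFG00000022711. In OS-1 ENSCAFG00000022711 moved from a ratio of 18.03 to 20.2. With edgeR's TMM library sizes the ratios fell in OS-1, OSCA-78 and OSCA-8 and rose in OS-2. In OS-1 the log2 ratio went from 4.17 to 3.28 for ENSCAFG00000022711 and from 4.62 to 3.70 for ENSCAFG00000022709, and in OS-2 from 8.27 to 8.99 and from 8.23 to 8.96. All 28 ratios stayed above 1 under both scalings.

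The cell libraries allowed a test that was independent of how the genes were chosen. The comparison asked whether the genes differed between the cells of the lines. By edgeR's quasi-likelihood F test on 14148 genes, 3.39% of all genes passed a Benjamini-Hochberg adjusted p of 0.05. Of the set, 5 genes passed the filter on low counts, and 0 of these 5 passed the test. An unadjusted edgeR p under 0.05 was reached by 3262 of the 14148 genes and by 0 of the 5, with ENSCAFG00000030140 at 0.0535. The 5 genes are too few to be set apart from all genes by these shares. The adjusted p was 0.224 for ENSCAFG00000030140, 0.326 for ENSCAFG00000022709, 0.359 for ENSCAFG00000022711, 0.783 for ENSCAFG00000027890 and 0.892 for ENSCAFG00000029384. DESeq2 called 19.2% of all genes and 1 of the 5, ENSCAFG00000030140, with an adjusted p of 0.0102, a share near that of all genes. With the replicate letter as a block, which the main edgeR fit left out, 9.06% of all genes and 0 of the 5 passed. In that edgeR block fit the unadjusted p was 0.0262 for ENSCAFG00000022709 and 0.0486 for ENSCAFG00000022711, and 4325 of 14148 genes were under 0.05. ENSCAFG00000029369 and ENSCAFG00000030655 did not reach the filter. Without it their edgeR adjusted p was 0.368 and 0.898, and with the block and no filter 0.0378 and 0.879, with 346 of the 356 cell counts of the first in OSCA-8 letter B.

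ENSCAFG00000030140 had its highest cell levels in letter B of OS-2 (179 CPM) and OSCA-78 (143 CPM). Letter A of these lines held 10.8 and 31.4 CPM, and the 4 libraries of OS-1 and OSCA-8 held 8.44 to 14.5 CPM. The mean ± SD (n = 2 each) was 94.9 ± 119 CPM for OS-2, 87.3 ± 79.0 CPM for OSCA-78, 12.4 ± 3.05 CPM for OS-1 and 8.88 ± 0.623 CPM for OSCA-8, so that the spread within OS-2 exceeded its mean.

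The cell libraries of a line carry the letters A and B, and some of the genes differed between the letters in the same direction in every line. ENSCAFG00000029384 stood at 97.4 CPM in letter A and 396 CPM in letter B of OS-1, 74.9 and 823 CPM in OS-2, 105 and 888 CPM in OSCA-78, and 75.0 and 358 CPM in OSCA-8. All letter B libraries were thus above all letter A libraries, by 4.07- to 11.0-fold within a line. ENSCAFG00000022709 and ENSCAFG00000022711 went the other way in 4 of 4 lines, with letter B at 0.313 to 0.759 and 0.281 to 0.737 of letter A. Across all 18811 genes with a cell count, 7.66% were higher in letter B in all 4 lines and 16.7% lower. Of the 7 genes, 2 were higher, ENSCAFG00000029384 and, on few counts, ENSCAFG00000029369, and 2 were lower.

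In an edgeR fit of line and letter, chosen after these values were seen, the log2 difference of letter B over A was 2.82 for ENSCAFG00000029384 (SE 0.29, adjusted p = 0.0550), higher in 4 of 4 lines, which did not pass 0.05. Leaving out each library in turn from this fit gave edgeR adjusted p values of 0.0547 to 0.280. In a separate fit with all 18811 genes kept, the difference was 2.81 and passed (edgeR adjusted p = 0.0192). In the filtered fit 0.0212% of 14148 genes were called higher in letter B and 0.0141% lower, with 0 of the 5 genes tested among them. The difference was -0.92 for ENSCAFG00000022709 (edgeR adjusted p = 0.158) and -0.88 for ENSCAFG00000022711 (adjusted p = 0.177). The labels do not say what the letters stand for.

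**Figure D5:**
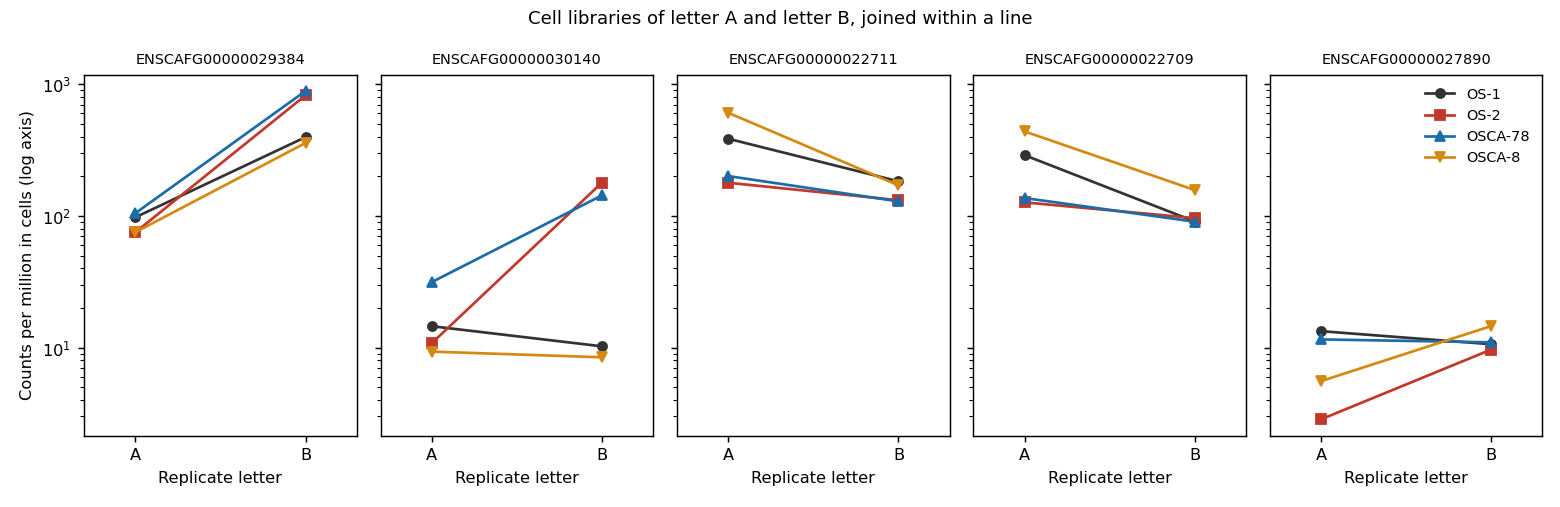
Lines join the CPM values (log axis) of letter A and letter B cell libraries of each cell line for the 5 genes that passed the filter on low counts. ENSCAFG00000029384 is higher in letter B in all 4 lines by 4.07- to 11.0-fold, and the pair ENSCAFG00000022711 and ENSCAFG00000022709 is lower in all 4.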

How the data were processed

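The deposited values are raw counts of reads, whole numbers for each of 24579 identifiers. Per the submitters' processing notes, FastQC 0.11.5, Trimmomatic 0.33.0 and kallisto 0.43.0 were used, with the builds CanFam3.1 and GRCm38.p5, and the table's name refers to Subread. Neither the counting tool nor how it handled strand and multi-mapping reads is given in the sources used here, which leaves values of genes with close copies or overlaps uncertain. There was 1 column that matched no sample label and was not used. No identifier matched the RefSeq table at hand (0 rows held one), so the gene and marker lists could not be applied and no sequence is shown.

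Genes over 1% of any labelled exosome column were taken, and all 7 are named, with 3 just outside and the closest by Spearman's rho with their summed share. The genes and lists were chosen with earlier results of these data known. Shares carry Clopper-Pearson 95% intervals. Cells were compared between lines with edgeR 4.0.16 (R 4.3.3, TMM, filterByExpr minimum count 10, Benjamini-Hochberg). Tested on simulated data with the spread of these libraries, that fit recovered most of the largest changes planted in 1 line and none of the smaller ones, so a gene it does not call may still differ. DESeq2 1.42.0, limma 3.58.1 voom and other scalings and filters were alternatives. Correlations planned over 12 exosome libraries were taken over 7, since the libraries fell into separate sets. Replicate pairs differed beyond sampling noise (chi-square per degree of freedom of at least 1.79 in 14 pairs). Letter B minus A, over 13328 genes, had correlations of 0.172 to 0.495 for the 6 pairs of lines, all above 0.1. The main fit between lines held line only and left this pairing out. The letter entered as a block in an alternative to it and in the fit of line and letter. Treating the letter as a pairing rests on the data rather than the labels.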

Additional observations from a re-analysis of the deposited data

Results flagged for a closer look

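In OS-1, the group with enough exosome libraries for a check of outlying samples, replicate 1 stood apart from the other 3 in ENSCAFG00000029369 with 19589 CPM, the next being 70.4 CPM. The limit used marks about 1 in 20 groups by chance, and 8 measures were checked, but that rate does not apply to genes chosen for a high value in at least 1 exosome library, so the value is a description.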

How the results depend on the processing

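The set was 7 genes without any single exosome library, 10 at a threshold of 0.5% and 5 at 2%. The median summed share of an exosome library, 16.1%, ran from 13.7% to 18.4% with each library left out. The median log2 exosome to cell ratio, 9.36, ran from 8.94 to 9.44 with each library left out, and was 9.80 with the 7 genes taken out of the totals and 8.90 with TMM library sizes. Of the single ratios, 2 turned, both in OSCA-78 without exosome replicate 2. That of ENSCAFG00000029384 ran from -0.076 there to 8.82 without cell replicate B, and that of ENSCAFG00000030140 from -0.69 to 8.24. The median rho of the 7 libraries, 0.25, was 0.61 with the 7 genes taken out of the totals and ran from 0.14 to 0.37 with each library left out, and line means or libraries without OS-2 were not run because fewer than 6 values remained. The number of genes called between cells of 4 lines by edgeR, 479, was 828 without a filter, 1282 with the replicate block, 1446 with the block and no filter, 2723 with DESeq2 and 0 to 1045 without each cell library, the cause not tested. The 2 values of 0, without OS-2 replicate B and OSCA-78 replicate B, had 1648 and 2598 genes at an unadjusted p under 0.05. Without OS-1 replicate A it was 1045, without OS-2 replicate A 62, without OSCA-78 replicate A 9, and the OSCA-8 libraries, left out in turn, gave 127 (A) and 117 (B). The replicate block changed no call among the 5 genes tested. The precision of ENSCAFG00000029369 and ENSCAFG00000030655 in cells is limited by their few counts.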
